A study of Arabidopsis thaliana with 24 samples.

Results

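Transcript levels in seedlings of the Arabidopsis thaliana ecotype Ler (Landsberg erecta) were set against those of the ecotype Col-0 (Columbia) for every gene that both of the authors' deposited tables list under the same identifier. There were 21361 such genes among the 24900 identifiers found in either table, and 8 of the 24 libraries of the series, the RNA-seq libraries, stand behind them. A gene was a member if its identifier was written the same way in both tables, with no further use of its level. Each table appears to list only genes with at least 1 read, so a gene without reads in an ecotype drops out. Each gene's mean count was divided by its table's sum over the shared identifiers, so that a level is given here as reads per 1000000 shared reads (RPM).

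The groups were diploid Col-0 (2xCol), tetraploid Col-0 (4xCol), diploid Ler (2xLer) and tetraploid Ler (4xLer), with 2 libraries in each. All were seedlings 2 weeks old, grown in soil at 22 °C in long days (16 h light) or short days (8 h light), a choice that the labels leave unstated for these libraries. The study concerned flowering time and trimethylation of histone H3 at lysine 27 in polyploid ecotypes, and its chromatin libraries are not analysed here. The labels name no separate cultures, so the spread between libraries may be technical.

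Ecotypes of Arabidopsis are inbred lines from different places that differ in sequence, in the copy number of some gene families and in regulatory alleles. Col-0 supplied the reference genome. Ler descends from an irradiated stock, carries the erecta mutation that gives a compact stem, and has long been crossed to Col-0 to map natural variation. Among the best known loci from such crosses are those that set the side chain of glucosinolates, the sulfur compounds that crucifers break down to deter herbivores, and those that set the timing of flowering.

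The tables hold a mean over the 4 libraries of an ecotype and no value per library, so the ecotype ratio has no test and is given as a description. From each mean and the authors' fold change between ploidies, a level was implied for the diploid and for the tetraploid of each ecotype. The tables do not state which ploidy is the numerator, and it was read as the tetraploid. If both tables ran the other way, each diploid level below would be the tetraploid level and the reverse. Every order of the 4 groups thus depends on this reading, while the pooled ratios do not. If 1 table alone ran the other way, ratios within a ploidy, counts in both ploidies and the test between ploidies would change. Ratios are log2 of Ler over Col-0, so that positive values are higher in Ler and 1 is a 2-fold difference. Each ± is an implied standard error that combines the authors' standard errors of the 2 tables. It does not cover the separate scaling of the tables, which put the 4 Ler libraries and the 4 Col-0 libraries on their own count scales. The 2 tables were also made with gene sets that differ, so that ecotype and gene annotation cannot be told apart for a gene whose counts differ widely.

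Most genes had like levels in the ecotypes. Of the 21361 shared genes, 18567 reached a mean count of 10 in at least 1 table, and 80.5% of these lay within 1.5-fold. The median log2 ratio was 0.01, its median size was 0.22 (a 1.16-fold difference), and the median implied standard error was 0.14. At least 2-fold apart were 1856 genes, with 608 higher in Ler (3.27%) and 1248 lower (6.72%). At least 4-fold apart were 717 genes, 158 higher in Ler (0.851%) and 559 lower (3.01%). Of the 1856, 1520 also lay more than 2 implied standard errors from 0. The share at least 2-fold apart was 36.0% among genes with a mean count of 10 to 30 and 2.46% among those with a mean count of 3000 or more. It varied little by chromosome, from 9.23% on chromosome 2 to 10.8% on chromosome 1.

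**Figure D1:**
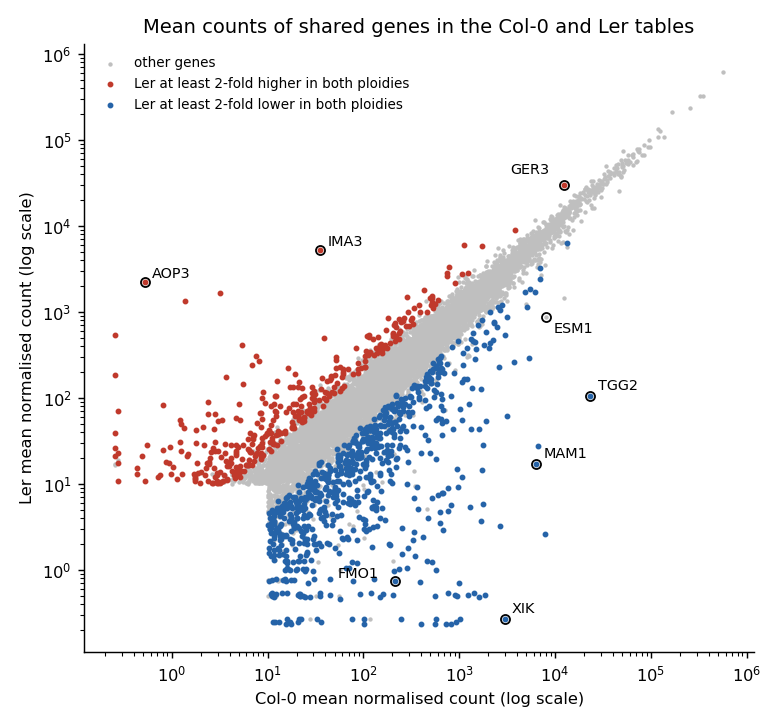
Mean normalised count of each shared gene in the Col-0 table (horizontal, log scale) and in the Ler table (vertical, log scale), where either mean reached 10. Red points are the 355 genes at least 2-fold higher in Ler in both ploidies and blue points the 767 at least 2-fold lower; AOP3 and IMA3 stand far above the diagonal and XIK, MAM1 and TGG2 far below it.

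The pooled ratio mixes 2 ploidies that were not alike. Within Col-0, 1528 genes (8.23%) were at least 2-fold apart between tetraploids and diploids, against 834 (4.49%) within Ler. Among diploids 736 genes were at least 2-fold higher in Ler (3.96%) and 1500 lower (8.08%). Among tetraploids the numbers were 1045 higher (5.63%) and 1144 lower (6.16%). Genes apart by 2-fold in the same direction in both ploidies numbered 1122 (6.04%), 355 higher in Ler (1.91%) and 767 lower (4.13%). A further 113 of the genes past 2-fold in the pooled means had opposite directions in the 2 ploidies. Whether a gene's ecotype ratio differed between ploidies could be tested, because the tables share no library. A two-sided Wald test of that difference gave an adjusted p under 0.05 for 1860 of 21361 genes (8.71%).

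Glucosinolate genes held several wide differences. Among 32 synthesis genes with the minimum count, 3 were higher in Ler by 2-fold and 8 lower, against 3.27% and 6.72% of all genes compared, with a median log2 ratio of −0.61 against 0.01 over all genes. In both ploidies 2 were higher and 6 lower, against 1.91% and 4.13% of all genes. These shares over all genes, 3.27% higher and 6.72% lower in the pooled means and 1.91% and 4.13% in both ploidies, stand beside each list and class count below. The 13 breakdown genes had 0 higher and 4 lower, with a median of −0.67, and 2 were lower in both ploidies. AOP3, which converts the side chain to a hydroxyalkyl form and is known as the form used by Ler, was at 91.6 RPM in 2xLer and 112 in 4xLer. In the Col-0 libraries together it had 2 reads, so its level in Ler was 4225-fold that in Col-0, with a 95% exact counting interval of 1231 to 36738. Its relative AOP1 was at 7.15 and 6.06 in diploid and tetraploid Col-0 and at 14.1 and 15.8 in Ler, a log2 ratio of 1.18 ± 0.17. For AOP3 and for AOP1 both Ler levels lay above both Col-0 levels.

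MAM1 and MAM3 extend the methionine chain from which aliphatic glucosinolates are made, and ecotypes are known to differ in which MAM copies they carry. MAM1 was at 126 in 2xCol and 452 in 4xCol, but at 0.987 in 2xLer and 0.574 in 4xLer (log2 ratio −8.53 ± 0.39). MAM3 lay the other way, at 5.46 and 25.7 in diploid and tetraploid Col-0 and 36.9 and 64.6 in Ler (1.70 ± 0.28). The 2 genes are close relatives in a tandem array, and how reads were divided between the copies was not measured here. For MAM1 the ratio was wider in tetraploids (−9.62) than in diploids (−7.00), with an adjusted p of 0.0097 in the Wald test of that difference. For MAM3 that test gave an adjusted p of 0.077.

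The activators of this pathway differed in size of gap. MYB29, a MYB activator of aliphatic synthesis, was at 54.5 and 44.7 in Col-0 and 11.1 and 10.9 in Ler, a 4.51-fold lower level, with ratios of −2.29 in diploids and −2.04 in tetraploids. MYB28, its closest partner in function, was at 103 and 118 in Col-0 and 129 and 126 in Ler (0.21 ± 0.07). CYP79F1, which starts the core pathway, was highest in 4xCol, with 104 in 2xCol, 353 in 4xCol, 54.5 in 2xLer and 58.3 in 4xLer. Its pooled log2 ratio of −2.02 ± 0.19 was −0.93 in diploids and −2.60 in tetraploids, and the difference had an adjusted p of 0.00028. BCAT4, the aminotransferase that feeds chain elongation, was also highest in 4xCol, with a ratio of 0.17 in diploids and −1.41 in tetraploids (adjusted p = 0.0019). CYP81F2, which modifies indole glucosinolates, was lower in Ler at a ratio of −2.22 ± 0.78 and a low mean count of 23.3 in Col-0.

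Breakdown of glucosinolates begins with the myrosinases TGG1 and TGG2. TGG2 was at 1027 and 1106 in diploid and tetraploid Col-0 and at 5.02 and 4.57 in Ler. That 222-fold lower level held in both ploidies, with ratios of −7.68 and −7.92. TGG1 differed less, at 1889 and 2377 in Col-0 and 876 and 1415 in Ler (−0.90 ± 0.13). ESP and ESM1 decide whether breakdown gives nitriles or isothiocyanates, and diploid Col-0 is known for low ESP and high ESM1. ESP was at 24.0 in 2xCol, 2952 in 4xCol, 1467 in 2xLer and 2194 in 4xLer. ESM1 was at 689 in 2xCol, 45.4 in 4xCol, 38.8 in 2xLer and 40.9 in 4xLer. For both genes 2xCol stood apart from the other groups, so the pooled ratio of 0.30 ± 0.07 for ESP hid a diploid ratio of 5.93, and the pooled −3.20 ± 0.08 for ESM1 came from a diploid ratio of −4.15 beside −0.15 in tetraploids. These known levels of ESP and ESM1 are part of the ground on which the direction between ploidies was read, so the placing of 2xCol for them is no separate result. Under this reading 4xCol lay nearer, by ratio, to both Ler groups than to 2xCol at ESP, ESM1, MAM3 and FRI. It lay near 2xCol and far from Ler at AOP3 and TGG2. At LpxC3, AT3G62530 and HSP70, given below, 4xCol stood apart from 2xCol and both Ler groups alike. These genes were picked after their values were seen, and such patterns were not counted over all genes. Whether the tetraploid Col-0 stock differs from the diploid in more than ploidy was not tested, and each 4xCol value carries that limit. NIT2, a nitrilase, and MBP2, a myrosinase-binding protein, had ratios of −4.76 ± 1.06 and −1.93 ± 0.82 at mean counts of 60.9 and 33.8 in Col-0, and MBP2 had the opposite direction in tetraploids (2.60).

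**Figure D2:**
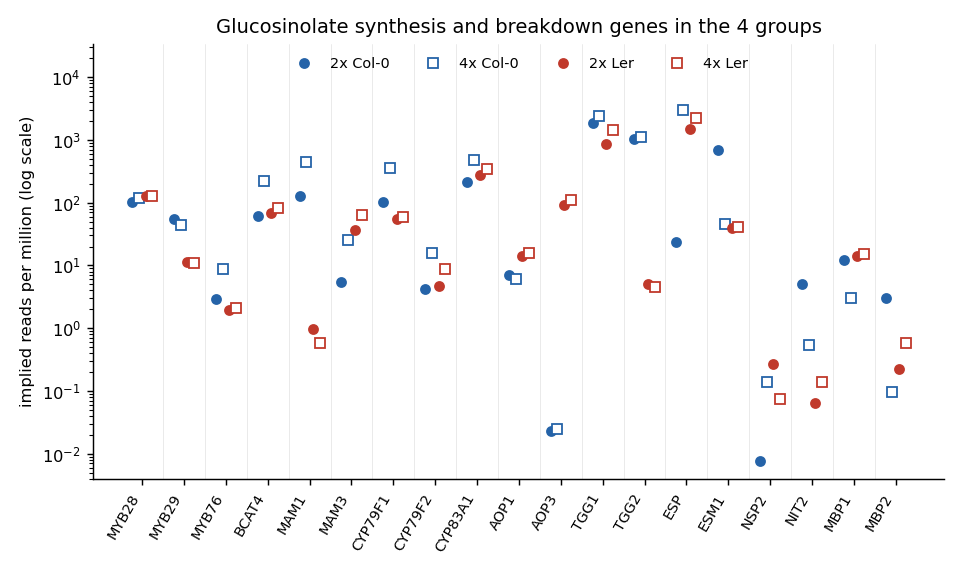
Implied RPM (log scale) of 19 glucosinolate genes in 2xCol, 4xCol, 2xLer and 4xLer, with no error bars because no value per library exists in the tables used. AOP3 and TGG2 separate the ecotypes in both ploidies, while ESP and ESM1 separate 2xCol from the other 3 groups; values under 0.1 rest on few reads.

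Many genes of salicylic acid defence were lower in Ler. Salicylic acid is the hormone that plants raise against biotrophic pathogens, made through ICS1 and sensed through NPR1. Of 22 listed genes, 0 were at least 2-fold higher in Ler and 15 lower, 13 of them in both ploidies, against 6.72% and 4.13% of all genes compared. The median log2 ratio was −2.38, with −3.83 in diploids and −1.67 in tetraploids. Summed over the list, the level was 1503 in 2xCol, 722 in 4xCol, 89.0 in 2xLer and 310.2 in 4xLer. ECS1 alone gave 901, 241, 9.37 and 124 of these sums. Both Ler sums lay below both Col-0 sums, and 2xLer is the lowest only under the reading of ploidy direction used here. Of 5 shared senescence markers with the minimum count, 3 were also lower in Ler by 2-fold and 2 of these in both ploidies, with sums of 91.9, 50.8, 29.2 and 34.0 in the same order. SAG13 alone gave 51.3, 18.7, 0.0882 and 0.731 of these sums. The list median of −1.66 became −0.056 at a minimum mean count of 10 in both tables. SAG12, a defining marker of senescence, was listed for Ler alone, at a mean count of 0.232. The part of senescence in the result was not tested. In whole seedlings, fewer cells that express a gene and less transcript per cell cannot be told apart.

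ACD6, an ankyrin-repeat protein that raises salicylic acid and varies between natural ecotypes, was at 133 and 103 in diploid and tetraploid Col-0, 1.2 in 2xLer and 19.6 in 4xLer. Its ratio was −6.79 in diploids and −2.40 in tetraploids, and that difference had an adjusted p of 1.6e-42. The synthesis gene ICS1 was closer, at 25.8 and 29.6 in Col-0 and 12.9 and 16.0 in Ler (−0.94 ± 0.13). EDS5, which exports the precursor from the plastid, had a ratio of −2.28 ± 0.28, and PBS3, which conjugates it, −2.28 ± 0.51. The signalling pair EDS1 and PAD4 had ratios of −0.78 ± 0.12 and −0.79 ± 0.17, their partner SAG101 −0.02 ± 0.18, and the receptor NPR1 −0.37 ± 0.11. EDS1, PAD4, SAG101, NPR1 and ICS1 thus lay within 2-fold in the pooled means. Wider gaps were found for EDS5 and PBS3 and for several regulators and outputs.

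Among the regulators, SARD1 and CBP60G, which activate ICS1, had ratios of −2.83 ± 0.43 and −3.50 ± 0.52, and WRKY70 −2.79 ± 0.26. For ALD1 and FMO1, which make pipecolic acid and its hydroxylated form for systemic resistance, Ler had 8 and 3 reads in all 4 libraries. FMO1 was at 12.4 and 7.27 in diploid and tetraploid Col-0, and its level in Col-0 was 292-fold that in Ler with a counting interval of 98.3 to 1400.0. ALD1 was at 6.62 and 10.1 in Col-0 and 0.0447 and 0.139 in Ler. PAD3, the last enzyme of the antimicrobial camalexin, was at 14.6 and 6.80 in Col-0 and had 4 reads in all Ler libraries.

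The pathogenesis-related output PR1 was at 103 in 2xCol, 71.9 in 4xCol, 0.130 in 2xLer and 4.76 in 4xLer, with a wide implied error (−5.16 ± 0.91). PR5 was at 77.8, 34.2, 7.39 and 21.5 in the same order, and PR2 at 45.1, 29.9, 3.90 and 36.4. For PR2 the tetraploid ratio was 0.28 and the diploid ratio −3.53, so the gap lay in diploids (adjusted p of the difference 4e-09). ECS1, a cell wall gene known to differ between ecotypes, was at 901 in 2xCol, 241 in 4xCol, 9.37 in 2xLer and 124 in 4xLer. SAG13, a senescence marker, was at 51.3, 18.7, 0.0882 and 0.731 in the same order.

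**Figure D3:**
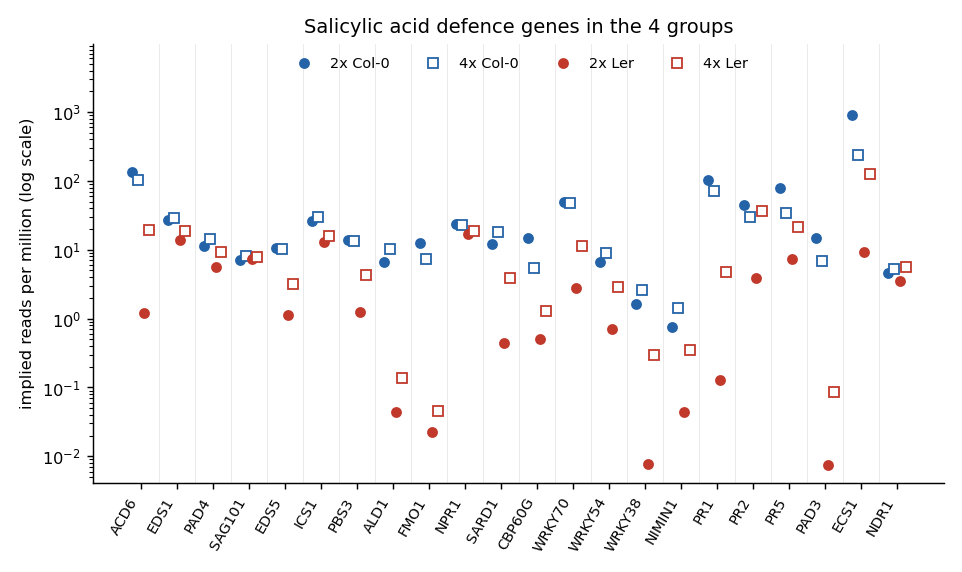
Implied RPM (log scale) of the 22 salicylic acid defence genes in 2xCol, 4xCol, 2xLer and 4xLer. For ACD6, PR1 and ECS1, 2xLer lies lowest with 4xLer between it and both Col-0 groups, while SAG101, NPR1 and NDR1 sit close together in all groups.

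Immune receptor genes differed less. Of 14 listed resistance genes with the minimum count, 0 were 2-fold higher in Ler and 3 lower (2 in both ploidies), with a median of −0.48, against shares of 6.72% and 4.13% lower over all genes. The class of 22 disease resistance genes read from gene names also had 0 higher and 3 lower, with a median of −0.16. ADR1, a helper receptor, was at 14.2 and 10.9 in Col-0 and 4.39 and 4.73 in Ler. RPP8, a receptor against downy mildew, was at 61.8 and 65.3 in Col-0 and 20.7 and 31.1 in Ler. SNC1, whose activity is known to depend on its level, was at 147 in 2xCol, 12.7 in 4xCol and 32.8 in each Ler group, so it was lower in Ler among diploids (−2.16) and higher among tetraploids (1.37, adjusted p of the difference 2.6e-85). Several of these genes sit in families of near-identical copies, and how the authors' counting split reads among them was not measured here. RPP1, RPP7, RPS6 and ZAR1, at mean counts of 1441, 1739, 758 and 1339 in the Col-0 table, were not listed under those identifiers for Ler and could not be compared.

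Flowering genes had a median near 0, with a few wide exceptions. Of 28 with the minimum count, 1 was 2-fold higher in Ler and 5 lower, against 3.27% and 6.72% of all genes, with a median of −0.08, and 1 was higher and 3 lower in both ploidies. TOE2, a listed repressor with a mean count of 666 in Col-0, was outside the comparison because Ler lists it under a joined name, at a mean count of 0.495. FLC, the MADS-box repressor of flowering whose Ler allele is known to be weak, was at 7.15 in 2xCol, 44.1 in 4xCol, 4.32 in 2xLer and 5.76 in 4xLer. Its ratio was −0.73 in diploids and −2.94 in tetraploids (adjusted p of the difference 7.5e-09), so 4xCol stood above 3 groups that lay closer together. FLC in tetraploid Col-0 was also a ground for reading the direction between ploidies. TEM1 and TEM2, repressors of the mobile flowering signal FT, were lower in Ler in both ploidies. TEM1 was at 12.4 and 9.79 in Col-0 and 3.32 and 2.61 in Ler, and TEM2 at 14.2 and 4.18 in Col-0 and 1.35 and 1.23 in Ler.

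CO, the day-length regulator that activates FT, was the listed flowering gene past 2-fold upward, at 1.66 and 1.12 in Col-0 and 3.96 and 2.93 in Ler (1.31 ± 0.34). SPL4, a phase change gene, was at 4.31 in 2xCol and 1.13, 0.521 and 0.964 in 4xCol, 2xLer and 4xLer. HUA2, for which Ler is known to carry a variant allele, was at 27.5 and 40.7 in Col-0 and 20.2 and 18.9 in Ler (−0.80 ± 0.11). FRI, an activator of FLC that is inactive in both ecotypes, was at 5.27 in 2xCol and 0.918, 1.71 and 1.66 in the other groups, with opposite directions in diploids (−1.63) and tetraploids (0.85). The relatives of FLC MAF1 and MAF2 had ratios of −0.17 ± 0.10 and 0.29 ± 0.10. ER itself, the gene of the erecta mutation, was at 98.1 and 104 in Col-0 and 114 and 109 in Ler (0.14 ± 0.07).

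Chromatin genes had medians near 0. Of 17 Polycomb and demethylase genes, which write, read or remove histone H3 trimethylation at lysine 27, 1 was 2-fold higher in Ler and 0 lower, against 3.27% and 6.72% of all genes, with a median of −0.05. A further 4 listed members, BMI1A, VAL2, MEA and VIN3, were listed for Col-0 alone and not compared. That gene was JMJ32, a demethylase of this mark, at 1.61 and 1.17 in Col-0 and 5.31 and 5.57 in Ler (1.97 ± 0.33). LHP1, which binds the mark, was at 17, 28.1, 18.1 and 18.1 in 2xCol, 4xCol, 2xLer and 4xLer (−0.33 ± 0.11). Of 12 DNA methylation genes 0 were past 2-fold, with a median of 0.19. NRPE1, the large subunit of RNA polymerase V, had a ratio of 1.07 in diploids and −0.02 in tetraploids (adjusted p of the difference 0.00026). The PAI copies of tryptophan synthesis, which vary in number between ecotypes and are near-identical, had ratios of 0.39 ± 0.11 for PAI1, −0.30 ± 0.16 for PAI2 and 0.24 ± 0.26 for PAI3.

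**Figure D4:**
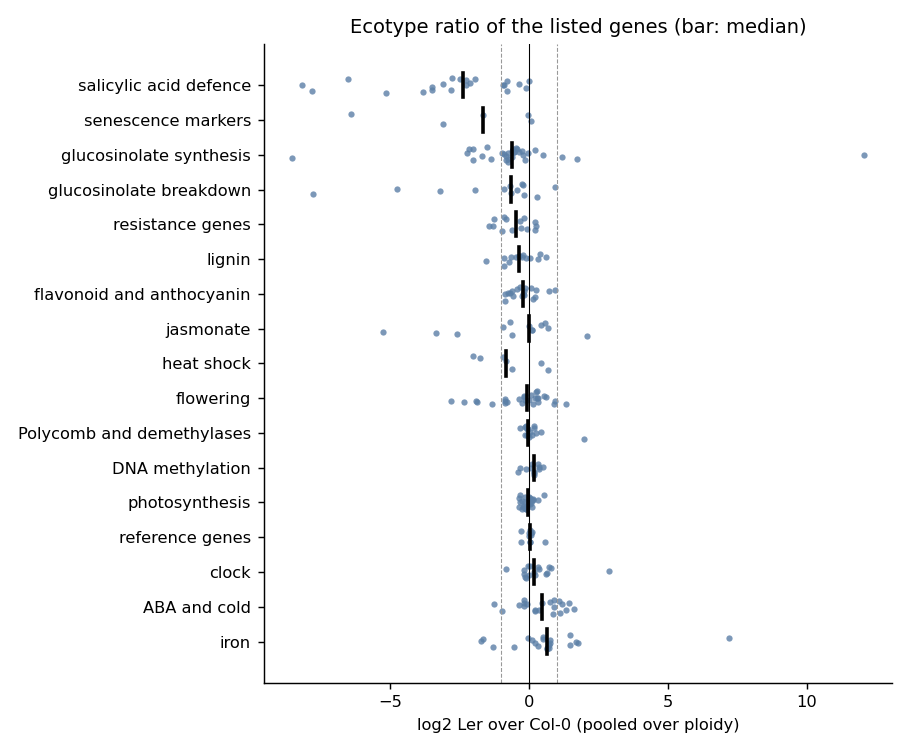
Log2 ratio of Ler over Col-0, pooled over ploidy (horizontal), for each listed gene that reached the minimum mean count, in 17 gene lists (vertical, points spread for sight). Black bars are list medians and dashed lines mark 2-fold; the salicylic acid list has its median at −2.38, while photosynthesis and reference genes lie near 0.

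Iron genes were among the lists with a positive median. Of 21 with the minimum count, 5 were 2-fold higher in Ler and 3 lower, against 3.27% and 6.72% of all genes, with a median of 0.65, and in both ploidies 4 were higher and 2 lower. AT2G30766 (IMA3), which encodes a peptide that signals iron need, was at 1.23 and 2.00 in diploid and tetraploid Col-0 and 192 and 284 in Ler, a 148-fold higher level (7.20 ± 0.28), with ratios of 7.28 in diploids and 7.15 in tetraploids. For the bHLH factors that switch on iron uptake, the Wald test of a difference between ploidies gave adjusted p of 0.075 for BHLH38, 0.33 for BHLH39 and 0.74 for BHLH100, so none passed. BHLH38 was at 0.828 in 2xCol, 17.8 in 4xCol, 10.5 in 2xLer and 40.5 in 4xLer. BHLH100 was at 2.34, 16.5, 14.7 and 49.2 in the same order, with an implied error of the pooled ratio of 0.69. FER1, a ferritin that stores iron, lay the other way at 151, 60.6, 50 and 18 (−1.65 ± 0.09). FIT, the partner of these bHLH factors in roots, had a ratio of −1.32 ± 0.50 at a mean count of 32.4 in Col-0.

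Genes of abscisic acid and cold response also had a positive median, 0.45. Of 21, 6 were 2-fold higher in Ler and 1 lower, but 2 were higher and 0 lower in both ploidies, and the median was −0.05 in diploids and 0.84 in tetraploids. COR15A, a chloroplast protein that protects membranes in frost, was higher in Ler in both ploidies, at 10.8 and 11.9 in Col-0 and 33.8 and 36.1 in Ler. GOLS2, which makes the osmolyte galactinol, was at 2.41 and 2.57 in Col-0, 0.942 in 2xLer and 11.6 in 4xLer, so its direction turned between diploids (−1.36) and tetraploids (2.17). P5CS1, the proline synthesis enzyme, was at 72.5 in 2xCol and 188, 201 and 269.8 in 4xCol, 2xLer and 4xLer. The phosphatase HAB1, a brake on abscisic acid signalling, had a ratio of 1.07 ± 0.07.

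A short heat shock list had different medians in the 2 ploidies. Of 7 genes with the minimum count, 0 were higher by 2-fold and 2 lower, with a median of −0.83, which was 0.34 in diploids and −1.68 in tetraploids. HSP70, a chaperone, was at 13.4 in 2xCol, 101 in 4xCol, 17.0 in 2xLer and 11.0 in 4xLer, which left 4xCol above the rest under this reading of direction (adjusted p of the difference 2e-53). HSFA2, the heat-induced activator, was at 4.48, 14.9, 6.61 and 3.60 in the same order. The wider class of 42 heat shock genes read from gene names had 0 higher and 4 lower, with medians of −0.05 in the pooled means, 0.09 in diploids and −0.14 in tetraploids, so the list's values do not hold for the class. HSP90.1 was lower in Ler in both ploidies, at 9.66 and 11.8 in Col-0 and 3.06 and 3.18 in Ler.

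Jasmonate genes, of the hormone of wounding and chewing insects, differed member by member. Of 13, 1 was 2-fold higher in Ler and 3 lower, all 4 in both ploidies, with a median of −0.02. AOC2, an enzyme of jasmonate synthesis, was at 25.2 and 13.5 in Col-0 and 66.2 and 95.8 in Ler. Its relatives AOC1 and AOC3 had ratios of 0.69 ± 0.14 and −0.60 ± 0.42. How reads were divided between these relatives was not measured here. VSP2, a storage protein gene induced by jasmonate, was at 8.87 and 7.57 in Col-0 and 0.465 and 1.16 in Ler. JMT, which methylates jasmonate, was at 17.5 and 4.80 in Col-0 and 1.96 and 1.75 in Ler. PDF1.2A, a defensin, had 3 reads in all Ler libraries against 2.55 and 0.236 RPM in diploid and tetraploid Col-0, a level in Col-0 38.6-fold that in Ler with a counting interval of 13.7 to 201.

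Phenylpropanoid genes lay mostly within 2-fold, as did most genes compared. Of 15 lignin genes 1 was lower past 2-fold, 6.67% against 6.72% of all genes, with a median of −0.37 against 0.01. COMT1, a methyltransferase of lignin building blocks, was at 279.7 and 169 in Col-0 and 76.1 and 76.5 in Ler (−1.56 ± 0.07), and the entry enzymes PAL1 and PAL2 had ratios of −0.73 ± 0.05 and −0.92 ± 0.06. PAL4, another entry enzyme, lay the other way at 0.62 ± 0.12, as did 4CL2, which activates the acids, at 0.30 ± 0.13. Of 19 flavonoid and anthocyanin genes 0 were past 2-fold in the pooled means, with a median of −0.24, but −0.85 in diploids and 0.29 in tetraploids. DFR, an enzyme of the anthocyanin branch, was at 152 in 2xCol and 81.9, 52.1 and 86.4 in 4xCol, 2xLer and 4xLer. FLS1, which makes flavonols, was lower in Ler in both ploidies by under 2-fold, at 329.8 and 302 in Col-0 and 179.8 and 168 in Ler.

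Clock genes lay near each other, with 1 of 17 higher past 2-fold, 0 lower and a median of 0.17. That gene was PRR3, a pseudo-response regulator, at 0.777 and 0.898 in Col-0 and 5.90 and 6.36 in Ler (2.87 ± 0.39). PRR9, expressed in the morning, was at 45.5, 31.5, 53.4 and 78.8 in 2xCol, 4xCol, 2xLer and 4xLer, with a ratio of 1.32 in tetraploids and 0.23 in diploids. The sources used here do not give the hour of harvest.

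The photosynthesis and reference lists had medians close to 0. Of 27 photosynthesis genes, the mark of green seedling tissue, 0 were past 2-fold, with a median of −0.04. Their summed level was 144122 in 2xCol, 135358 in 4xCol, 139666 in 2xLer and 134214 in 4xLer. Of 11 reference genes often used to normalise expression, 0 were past 2-fold and the median was 0.03. ACT2 and GAPC1 had ratios of 0.00 ± 0.05 and 0.00 ± 0.05, while TIP41 stood off at 0.58 ± 0.10 and UBQ10 at −0.30 ± 0.05. Root markers had a median of −0.40 over the 3 with the minimum count, −0.18 in diploids and −1.47 in tetraploids. CASP1 was the member lower past 2-fold, at 0.342, 0.936, 0.302 and 0.308 in 2xCol, 4xCol, 2xLer and 4xLer. Of 3 shared seed markers 0 reached the minimum count, and among flower markers SEP3 did, higher in Ler past 2-fold in both ploidies (1.44 ± 0.75), at 0.282, 0.264, 0.662 and 0.824.

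Gene classes were also read from words in the gene names and their synonyms, to be read against 3.27% higher and 6.72% lower over all genes. Each class holds only the genes so named and can be a small part of its family. Of 66 genes named as ribosomal proteins, 0 were past 2-fold in either direction. Of 131 cytochrome P450 genes, which modify hormones and defence compounds, 8 were higher and 29 lower in Ler. Of 106 receptor kinase genes 3 were higher and 29 lower, 20 of them in both ploidies, where the share over all genes was 4.13%. Of 36 glutathione transferase genes, which detoxify reactive compounds, 1 was higher and 9 lower. Of 25 MADS genes 2 were higher and 6 lower. Of 31 F-box genes 0 were higher and 3 lower, 9.68% of the class, near the share of all genes past 2-fold.

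Among genes of high mean count, a few differed in both ploidies. GER3, a germin-like protein of the cell wall, was at 464 and 668 in Col-0 and 1215 and 1511 in Ler (1.27 ± 0.05). RXW8 was at 232 and 113 in Col-0 and 494 and 317 in Ler (1.23 ± 0.12). RHM1, which makes UDP-rhamnose for cell walls and flavonols, lay the other way at 638 and 586 in Col-0 and 307 and 266 in Ler. FSD1, an iron superoxide dismutase, was at 404 and 226 in Col-0 and 128 and 93.4 in Ler. Of 19 genes known for natural variation, 4 were higher and 5 lower in Ler by 2-fold, with a median of −0.17 and 3 each way in both ploidies. MOT1, the molybdate transporter whose Ler allele is known to be weak, was at 8.62 and 8.89 in Col-0 and 1.98 and 2.83 in Ler. HKT1, a sodium transporter, had a ratio of −0.19 ± 0.27. AT2G25450 was at 136 and 580.1 in Col-0 with 10 reads in all Ler libraries, and AT1G73600 was at 273 and 337 in Col-0 and 1.12 and 1.37 in Ler.

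At the far ends lay 31 genes whose mean reached 100 in one ecotype and that had 3 reads or fewer in all libraries of the other, 28 of them low in Ler. They include genes that ordinary cells use. XIK, a myosin motor that moves organelles, was at 131 and 141 in Col-0 and had 1 read in all Ler libraries, a level in Col-0 11038-fold that in Ler with a counting interval of 2153 to 474020.0. G6PD2, an enzyme of the pentose phosphate pathway, had 1 Ler read against 37.4 and 46.1 in Col-0. SAR1, a nuclear pore protein, had 1 Ler read against 32.3 and 41.8. MOS1, a regulator of immune receptor expression, had 2 Ler reads against 68.6 and 79.0. Upward, AT1G63540 had 1 Col-0 read against 22.3 in 2xLer and 26.9 in 4xLer, and AT4G23900 had 1 Col-0 read against 6.96 and 9.75. For these genes a lack of transcript and a lack of a matching gene model or alignment cannot be told apart, so they are given as listed. A gene without any read in an ecotype would not be among them.

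Runs of neighbouring genes that differed together depended on the minimum count and the ploidy. Runs of at least 3 neighbouring compared genes, all at least 4-fold apart in the same direction, numbered 4, each of 3 genes and each lower in Ler. They became 0 at a minimum mean count of 100, 0 at a minimum of 10 in both tables, 7 without a minimum, 13 in diploids, 7 in tetraploids and 2 without genes of 3 or fewer reads in a table. The 4 runs were AT1G26380, AT1G26390 and AT1G26420; AT1G51850, AT1G51860 and AT1G51890; MSRB7, MSRB8 and MSRB9, methionine sulfoxide reductases that repair oxidised proteins; and AT5G20450, EFR, the receptor of a bacterial elongation factor, and XIK. Their log2 ratios ran from −13.43 for XIK to −2.17 for MSRB9. Tandem copies share sequence. AT1G26420 had the opposite direction in tetraploids, on about 4.21 implied reads in 4xCol and 8.45 in 4xLer. The Wald test of its difference between ploidies gave an adjusted p of 0.055.

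Some genes had their ecotype gap in a single ploidy. At least 4-fold apart in diploids and under 1.5-fold in tetraploids were 122 genes, and the reverse held for 147. Besides ESP and ESM1, those of highest mean count were AT1G09590, AT3G62530, LpxC3 and AT1G25097, all low in 4xCol. AT3G62530 was at 335 in 2xCol, 11.3 in 4xCol, 241 in 2xLer and 265 in 4xLer. LpxC3, named for an enzyme of lipid A synthesis in bacteria, was at 215, 0.931, 234 and 181 in the same order. LpxC3 belongs to a set of near-identical tandem copies, and how reads were divided between them was not measured here.

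**Figure D5:**
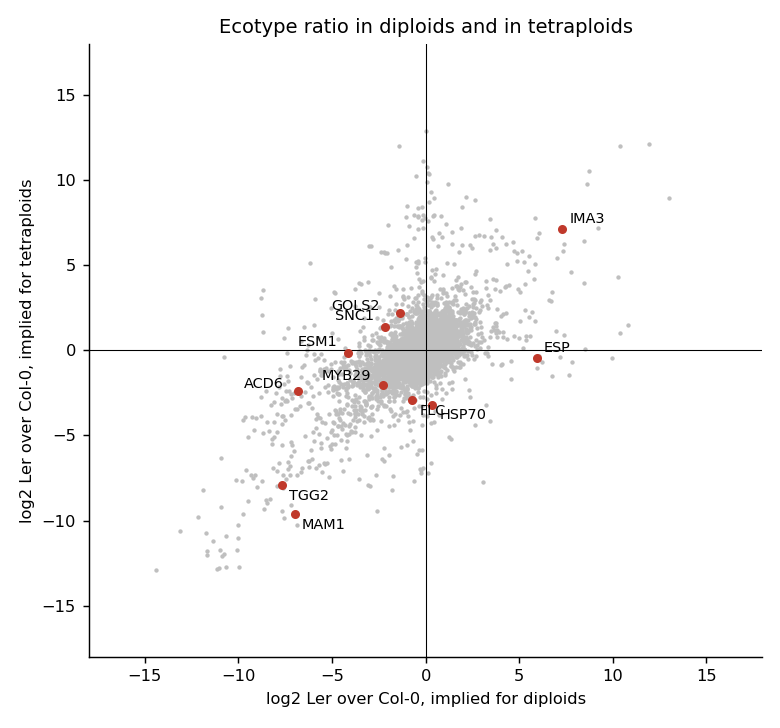
Log2 ratio of Ler over Col-0 implied for diploids (horizontal) and for tetraploids (vertical) for the 18567 genes compared, with 11 named genes in red. IMA3, TGG2 and MYB29 lie near the diagonal, ESP and ESM1 lie near the horizontal axis, and HSP70 lies near the vertical one.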

How the data were processed

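RNA from the 8 seedling libraries was enriched for poly(A) transcripts before library preparation (NEBNext Ultra), per the labels' protocols. HISAT2, Subread and DESeq2 with build TAIR10 appear in the submitters' processing notes, which leave strand use in counting unstated. Per the file headers, each table holds DESeq2 results of the authors: a mean normalised count per gene, a signal averaged over 4 libraries, a log2 fold change between ploidies with its standard error, a Wald statistic, which is a score, and p-values. The deposited p-values were not used. The fold change was read as tetraploid over diploid, a sign the headers leave unstated. The Ler table joins accession names to locus codes in 270 identifiers and lists no organelle genes, so its annotation differs from that of Col-0.

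Here each mean was divided by its table's sum over 21361 shared identifiers (97.8% and 99.4% of the totals, with mean shared library totals of 21862064 and 21999856 reads). Size factors, read from the values of single reads, ran from 0.92 to 1.14 in Col-0 and 0.92 to 1.08 in Ler. Ploidy levels were implied from mean and fold change, and implied errors assume equal log-scale variance in both ploidies. Ratios with 1 to 3 reads in a table have 95% exact binomial intervals, which cover counting error only. Ratios were compared between ploidies by a two-sided Wald test with Benjamini-Hochberg adjustment over the shared identifiers; this test was added after seeing the data. The code was tested on simulated data. Names came from a gene table of TAIR10.1, which matched 99.8% of shared identifiers, and classes from words in its symbols and synonyms. Python 3.11.15, numpy 2.4.6, pandas 2.3.3 and scipy 1.17.1 were used.

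Named genes were every listed gene of known natural variation, up to 4 members of each list by size of ratio, the 12 highest and 12 lowest ratios past 4-fold in both ploidies at a mean of 100 or more, the 10 of highest mean past 2-fold in both, up to 6 past 4-fold in a single ploidy, and members of runs. The text shows some of these, and other list members were chosen after their values were seen. Members and lists were chosen with earlier results of these data known. Alternatives were another scaling, minimum, pseudocount, ploidy and fold limit.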

Additional observations from a re-analysis of the deposited data

Results flagged for a closer look

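The ecotype ratio differed between tetraploids and diploids in 41 of the 132 genes named by the rule, by the Wald test with an adjusted p under 0.05. The rule itself picked 6 of the 41 (ESP, ESM1, AT1G09590, AT3G62530, LpxC3 and AT1G25097) for a gap in a single ploidy, and others for wide ratios, so the count is a description and is not comparable with the share over all genes. Values in parentheses are the log2 ratio of Ler over Col-0 in tetraploids minus that in diploids, so that positive values mean a ratio further toward Ler in tetraploids, and 28 were positive and 13 negative. With the ploidy direction of both tables turned, every sign would turn, to 13 positive and 28 negative. Each rests on 2 libraries per group.

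Among defence and senescence genes the differences were ACD6 (4.39), PR1 (5.71), SAG13 (4.51), WRKY53 (1.89), SNC1 (3.53), RPP8 (0.51) and RPP13 (0.85), all positive. Among glucosinolate genes and the root beta-glucosidase gene PYK10 they were ESP (−6.36), ESM1 (4.00), MAM1 (−2.62), MBP2 (6.37) and PYK10 (0.97), which point both ways. Flowering, chromatin and DNA methylation genes gave FLC (−2.21), FRI (2.48), HUA2 (−0.65), SPL4 (2.82), LHP1 (−0.69) and NRPE1 (−1.09). Heat shock genes gave HSP70 (−3.55), HSFA2 (−2.62) and HSP101 (−1.78), all negative, and 4xCol held the highest level in each under the reading of ploidy direction used, 2xCol with the direction turned. Hormone, cold and clock genes gave AOC2 (1.43), JMT (1.70), GOLS2 (3.52) and PRR9 (1.09). Genes of phenylpropanoid and tryptophan synthesis gave DFR (1.63), COMT1 (0.74), 4CL3 (−0.45) and PAI1 (−0.71). Photosynthesis and reference genes gave PETE2 (0.99), LHCB1.1 (0.54), LHCA1 (−0.32), UBQ10 (1.13) and ACT8 (0.42).

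The remaining genes were MSRB8 (6.04), LpxC3 (7.48), AT1G25097 (10.74), AT3G62530 (5.02), AT1G09590 (2.15), AT1G58983 (1.14) and AT5G17090 (−5.97). PAI1, LHCB1.1, MBP2 and LpxC3 have closely similar copies. Which of the other flagged genes have such copies was not examined, and the division of reads was not measured for any of them.

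Identifiers found in a single table stand outside the comparison. At mean counts of 100 or more, 433 nuclear identifiers were listed for Col-0 alone and 136 for Ler alone, 87 of the latter being joined names. Of 183 loci with the minimum mean count, listed plainly for Col-0 and as a joined name for Ler, 87 lay within 2-fold. Their median log2 ratio was −0.72, against 0.01 over all genes compared. Among all genes compared, 1856 of 18567 were at least 2-fold apart, so the joined loci differed more often. ATMS1, the methionine synthase, had a mean count of 50424 in Col-0 and 45500 under the joined name in Ler, and NSP1, a nitrile specifier protein, 3339 and 1461. Other loci lay far apart, such as CNGC12 with mean counts of 2358 in Col-0 and 0.544 under the joined name in Ler.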

How the results depend on the processing

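No paired analysis was possible because the tables hold no value per library, and for the same reason no replicate could be left out. Centring on the median ratio, leaving the deposited means unscaled, scaling without the 100 highest genes, a pseudocount of 1 and adding joined names to their locus kept each count of genes within 1.5 times. Counts at least 2-fold higher, lower and either way, and the same way in both ploidies, were 608, 1248, 1856 and 1122. They became 1145, 1991, 3136 and 1694 without a minimum, 243, 555, 798 and 489 at a minimum of 100, 385, 699, 1084 and 569 at a minimum of 10 in both tables, and 158, 559, 717 and 440 at 4-fold. Fewer or more genes enter by construction. Tetraploids alone gave 1045 higher. The 4 runs became 7 without a minimum, 0 at a minimum of 100, 0 at 10 in both tables, 13 in diploids, 7 in tetraploids and, chosen after seeing the data, 2 without genes of 3 or fewer reads in a table.

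Of 218 list medians recomputed, 186 moved by less than the median implied error of their members. In diploids the others were −0.16 for glucosinolate synthesis, −3.83 for salicylic acid defence, −0.85 for flavonoids, −0.051 for abscisic acid and cold, 0.34 for heat shock, 0.45 for iron and −2.70 for senescence markers. In tetraploids they were 0.068 for natural variation, −0.35 for resistance, −0.88 for glucosinolate synthesis, −0.43 for glucosinolate breakdown, 0.15 for flowering, −1.67 for salicylic acid defence, 0.29 for flavonoids, 0.84 for abscisic acid and cold, −1.68 for heat shock, 0.27 for clock, −0.11 for photosynthesis, −0.25 for lignin, −0.017 for DNA methylation, −1.47 for root markers and −0.80 for senescence markers. Without a minimum they were −0.32 for resistance, −0.43 for glucosinolate breakdown and −0.31 for jasmonate, at a minimum of 100 −0.43 for glucosinolate breakdown, 0.80 for abscisic acid and cold, −1.35 for heat shock and −0.86 for senescence markers, and at 10 in both tables −0.43 for glucosinolate breakdown, 0.75 for abscisic acid and cold and −0.056 for senescence markers. The cause was not tested.

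Of 1452 recomputed gene ratios 1310 moved by less than their implied error. A changed minimum, or leaving out genes of few reads, cannot move a gene's own ratio, so part of the 1310 was fixed beforehand. In diploids 59 and in tetraploids 64 of 132 ratios moved by less than their error. Of ratios at least 2-fold apart, 5 turned: GOLS2 to −1.36 and HSP70 to 0.34 in diploids, and AT1G26420 to 1.00, MBP2 to 2.60 and SNC1 to 1.37 in tetraploids. That of AT1G26420 rests on about 4.21 implied reads in 4xCol and 8.45 in 4xLer. Depth limits low genes, whose median implied error was 0.64 at mean counts of 10 to 30 against 0.06 at 3000 or more.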
